A study of Mus musculus with 6 samples.

Results

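Hyaluronan synthesis, turnover and receptors were examined through 10 genes, chosen by name: the synthases Has1, Has2 and Has3, the depolymerising proteins Hyal1, Hyal2 and Cemip, the receptors Cd44 and Hmmr, and the binding proteins Tnfaip6 and Vcan. All non-control probes of these genes were taken on all 6 arrays, which gave 17 of 56605 probes and 10 of 45616 genes. RNA came from cultured tail tissue fibroblasts of C57BL/6 mice, and each of the 6 samples, labelled with Cy3, was read on its own Agilent mouse array. The 3 groups had 2 arrays each, and cells of every group, controls included, carried LH2F/F, a floxed allele of lysyl hydroxylase 2, together with CAG-Cre, a Cre recombinase driven by the broadly active CAG promoter. The no.1 cells had tamoxifen for 24 h and stayed in medium that contained it, the no.2 cells had tamoxifen for 24 h and then medium free of it, and control cells were kept without tamoxifen. The series' design text sets no.1 against no.2. Since no cells with an intact gene were given tamoxifen, the drug, culture time and deletion cannot be told apart in the comparisons with control. Nothing in the labels tells if a group's arrays stem from separate cultures or animals, so a p-value measures only the spread between these arrays, which may be technical.

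Hyaluronan is a long unsulphated glycosaminoglycan that synthases in the plasma membrane build from UDP-glucuronic acid and UDP-N-acetylglucosamine and extrude into the matrix. Fibroblasts surround themselves with a hyaluronan coat that versican and other binding proteins organise and that CD44 anchors to the cell surface. Turnover begins with cleavage outside or at the surface of the cell and ends in the lysosome.

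Hmmr passed higher and Cemip lower against control in both tamoxifen groups, under both ways of scaling the arrays described below, and the 250 bases before their transcription start sites are shown for that reason. Both sequences are RefSeq's, on assembly GRCm38.p6, read 5′ to 3′ on the gene's own strand, which is the minus strand in both cases. Capitals mark matches on either strand to CCAAT (written ATTGG on the other strand), to GGGCGG (a GC box, CCGCCC on the other strand) and to TATAAA. The Hmmr sequence lies at chr11:40733438-40733687 and the Cemip sequence at chr7:84086506-84086755.
Hmmr: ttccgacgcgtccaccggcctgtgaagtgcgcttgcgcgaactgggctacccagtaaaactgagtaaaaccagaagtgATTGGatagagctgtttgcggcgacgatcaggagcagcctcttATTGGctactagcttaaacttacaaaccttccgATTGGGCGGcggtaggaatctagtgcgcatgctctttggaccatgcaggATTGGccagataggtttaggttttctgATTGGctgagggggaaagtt
Cemip: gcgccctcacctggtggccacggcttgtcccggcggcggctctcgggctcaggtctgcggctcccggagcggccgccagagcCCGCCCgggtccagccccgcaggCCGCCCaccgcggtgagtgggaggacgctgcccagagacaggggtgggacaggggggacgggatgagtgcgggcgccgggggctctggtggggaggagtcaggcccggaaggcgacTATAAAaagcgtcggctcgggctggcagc
The Hmmr promoter held 5 CCAAT matches, all on the other strand, with first bases at 172, 129, 96, 47 and 20 bases before the start, and its GC box at 93 bases overlapped the CCAAT match at 96. Of 32851 promoters of the same length, 33.8% held at least 1 CCAAT match on either strand and 70 (0.213%) held at least 5. The threshold of 5 was the count in Hmmr itself. The Cemip promoter held no CCAAT match, a TATAAA match with its first base 29 bases before the start, and GC boxes at 168 and 145 bases. TATAAA was found in 12.4% and GGGCGG in 32.7% of all promoters. These are matches of letters in one window, and no binding was measured here. Promoters were at hand for 8 of the 10 members, all but Has2 and Has3.

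Signal over background was highest in no.1. The share of probes well above background was 53.4% and 53.5% in no.1, 48.4% and 48.6% in no.2, and 44.2% and 45.7% in control. Levels below are log2 of the processed signal relative to the array's 75th percentile over all non-control probes, so a level describes a gene against the other genes of its array. That choice matters here: the median change over all 23060 genes tested was -0.12 in no.1 and -0.10 in no.2 against control on this scale, and 1.85 and 1.23 when arrays were scaled to 7 spike-in probes instead. The control arrays were more alike than the others, with a robust SD of their log2 difference of 0.15, against 0.42 for no.1 and 0.39 for no.2. File names give 24 h for replicate 1 and 48 h for replicate 2 of both tamoxifen groups and 0 h for both controls, so culture time may also differ within a group. Plod2, which encodes LH2 and is the targeted gene, had signals of 31.8 and 17.1 in no.1, 13.3 and 8.59 in no.2, and 42.1 and 34.9 in control. Its log2 change against control was -2.13 in no.1 (SE 0.34, limma adjusted p = 0.00613), while no.2 gave -2.57 (SE 0.34, adjusted p = 0.00768). With spike-in scaling the Plod2 change was -0.17 in no.1 (adjusted p = 0.648), and no.2 showed -1.24 (adjusted p = 0.0147). Of 10 fibroblast markers, 9 were well above background on all arrays, and Lum on none. The summed level of this list, relative to the 75th percentile, was 1130 to 1150 in no.1, 1370 to 1490 in no.2 and 1480 to 1540 in control. Single markers differed more: the log2 level of Dcn was 0.34 and 1.12 in no.1, 1.58 and 2.74 in no.2, and 4.43 and 4.49 in control, and that of Thy1 was 6.27 and 6.36 in no.1, 6.71 and 6.54 in no.2, and 8.56 and 8.51 in control. Fn1 ran the other way, at 7.99 and 7.89 in no.1, 7.92 and 8.06 in no.2, and 6.70 and 6.73 in control. The part of such differences in the levels below was not tested.

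Against control, 5 of the 9 members tested passed in no.1, with Has2 and Hmmr higher and Cemip, Hyal2 and Vcan lower. Over all 23060 genes, 47.8% passed in that comparison, 21.4% higher and 26.4% lower. In no.2, 3 of 9 passed against control, Hmmr higher and Cemip and Vcan lower, where 28.3% of all genes passed (12.1% higher and 16.2% lower). The shares of members were thus near those of all genes, and the counts give no result about the members as a set. Their median log2 change was -0.58 in no.1 and -0.43 in no.2 against control. Genes were tested where the 2 arrays of any group both had the brightest probe well above background. Has3 did not meet this on any array, 7 members met it on all 6 arrays, Has1 entered only through the control arrays, and Tnfaip6 only through the tamoxifen arrays. In bulk RNA, fewer cells of a type and less RNA per cell cannot be told apart, and this holds for every level given here.

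**Figure D1:**
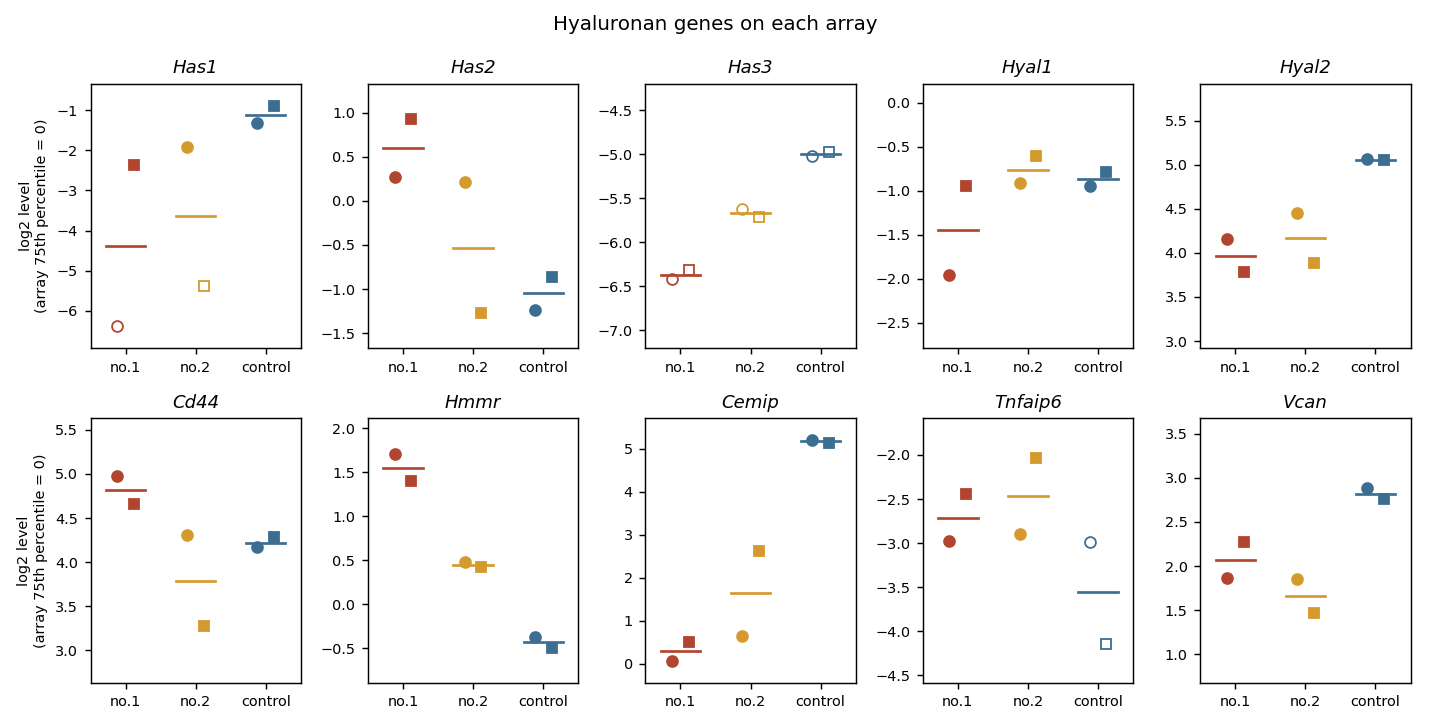
Levels of the 10 members, 1 panel per gene, as log2 of processed signal relative to the array's 75th percentile, for no.1, no.2 and control from left to right. Circles are replicate 1, squares replicate 2, filled symbols are well above background and bars are group means of 2 arrays; vertical ranges differ between panels. Hmmr is highest in no.1 and lowest in control with no overlap, Cemip is highest in control, and the open symbols of Has3 are at background in every group, so their heights follow each array's 75th percentile only.

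Among the synthases, Has2, the main hyaluronan synthase of fibroblasts, had signals of 116 and 163 in no.1, 63.6 and 23.5 in no.2, and 14.5 and 18.6 in control. Both no.1 arrays lay above all 4 others, and on the raw signal both no.2 arrays lay above control. On the scaled level Has2 averaged 0.60 ± 0.47 in no.1, -0.53 ± 1.05 in no.2 and -1.05 ± 0.27 in control (SD, n = 2 each). The difference of no.1 from control was 3.14-fold (log2 1.65, SE 0.51, limma adjusted p = 0.04). This call was lost when the control arrays were averaged into 1 sample (adjusted p = 0.105). It was lost too without the filter on dim probes (adjusted p = 0.0581) and without any 1 of the no.1 or control arrays (adjusted p = 0.0816 to 0.175). Normexp correction gave a smaller log2 difference of 0.73 that still passed. In no.2 the log2 difference from control was 0.52 (95% CI -0.73 to 1.76, adjusted p = 0.464), and replicate 1 stood above replicate 2: without replicate 1 of no.2 it was -0.23. With spike-in scaling Has2 was higher in both groups, by 3.61 in no.1 (adjusted p = 0.000307) and by 1.84 in no.2 (adjusted p = 0.00679).

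Has1, another synthase, gave signals of 1.15 and 16.3 in no.1, 14.7 and 1.36 in no.2, and 13.5 and 18.1 in control. One array of each tamoxifen group was at background, so the group means describe neither array. The log2 difference from control was -3.27 in no.1 (SE 1.54, adjusted p = 0.124), while no.2 gave -2.53 (SE 1.54, adjusted p = 0.245). Without replicate 2 of no.1, which leaves its background array, the no.1 difference was -5.27. With normexp correction of all arrays the no.1 difference was -0.84 and passed (adjusted p = 0.0103). The offset of 50 added there was more than any Has1 signal, so that setting cannot show a fall. Has3 gave signals of 1.05 to 1.12 and was not well above background on any array, so no fold change is given.

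UDP-sugar supply was described by 7 genes of the pathways to UDP-glucuronic acid and UDP-N-acetylglucosamine, all of which were tested. Of all genes, 21.4% passed higher and 26.4% lower in no.1, and 12.1% and 16.2% in no.2. In both tamoxifen groups 1 of the 7 passed higher and 1 lower against control, with a list median of 0.31 in no.1 and 0.02 in no.2. Those 2 genes encode the same step, glutamine-fructose-6-phosphate transamination, which opens the hexosamine pathway. Gfpt2 had signals of 39.9 and 47.1 in no.1, 34.6 and 50.6 in no.2, and 176 and 187 in control. All 4 tamoxifen arrays lay below both controls, by 11.1-fold in no.1 (log2 -3.48, SE 0.26, adjusted p = 0.00114) and by 7.16-fold in no.2 (log2 -2.84, adjusted p = 0.00306). With normexp correction the log2 differences were -1.96 and -1.58, and with spike-in scaling -1.51 in both groups. Gfpt1, its paralog, had signals of 910 and 924 in no.1, 467 and 729 in no.2, and 149 and 145 in control. It was 2.35-fold higher in no.1 (adjusted p = 0.0118) and 2.41-fold higher in no.2 (adjusted p = 0.0192), and neither call was kept once the control arrays were averaged (adjusted p = 0.0621 and 0.0962). Neither was kept without either single control array (adjusted p = 0.0584 and 0.0629 in no.1 and 0.0871 and 0.0955 in no.2). The other 5 genes, Ugp2, Ugdh, Gnpnat1, Pgm3 and Uap1, did not pass in any comparison.

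Turnover was led by Cemip, a hyaluronan-binding protein that human skin fibroblasts need for hyaluronan depolymerisation. Its brighter probe gave signals of 101 and 121 in no.1, 86.5 and 353 in no.2, and 1250 and 1190 in control. No tamoxifen array reached the controls, and replicate 2 of no.2 stood above the other 3. The scaled level averaged 0.29 ± 0.31 in no.1, 1.64 ± 1.40 in no.2 and 5.17 ± 0.04 in control (SD, n = 2 each). Cemip was 29.4-fold lower in no.1 (log2 -4.88, SE 0.61, adjusted p = 0.00355). Its call was kept under all 19 alternatives run, some of which repeat a fit. In no.2 it was 11.5-fold lower (log2 -3.53, SE 0.61, adjusted p = 0.0136), and this call was lost on averaging the control arrays (adjusted p = 0.0529) and without replicate 2 of control (adjusted p = 0.0519). With spike-in scaling the log2 differences were -2.91 (adjusted p = 0.00878) and -2.20 (adjusted p = 0.0351). A second, dimmer Cemip probe had signals of 11 and 8.31 in no.1, 8.58 and 16.8 in no.2, and 71.5 and 65.2 in control. Fitted over all 29681 probes tested, it changed by -4.25 in no.1 (adjusted p = 0.0012), and no.2 showed -3.23 (adjusted p = 0.00394) against control, the same direction as the first.

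Hyal1 and Hyal2 encode hyaluronidases that act in the lysosome and at the cell surface, and they are neighbours on mouse chromosome 9. Hyal2 had signals of 1720 and 1160 in no.1, 1200 and 841 in no.2, and 1140 and 1110 in control. On the raw signal both no.1 arrays lay above both controls, while 1 no.2 array lay above and 1 below them. The scaled levels of all 4 tamoxifen arrays lay below both controls, at 3.97 ± 0.27 in no.1, 4.17 ± 0.40 in no.2 and 5.05 ± 0.01 in control (SD, n = 2 each). On the scaled level Hyal2 was 2.12-fold lower in no.1 (log2 -1.08, SE 0.27, adjusted p = 0.0195), but with spike-in scaling it was higher (log2 0.88, adjusted p = 0.0197), so its direction depends on the scaling. In no.2 the log2 difference was -0.88 (95% CI -1.53 to -0.24, adjusted p = 0.0532), and 0.45 with spike-in scaling (adjusted p = 0.18). The no.1 call was also lost under normexp background correction (adjusted p = 0.198), median scaling (adjusted p = 0.104), with the control arrays averaged (adjusted p = 0.0889), and without control replicate 1, control replicate 2 or no.1 replicate 2 (adjusted p = 0.0864, 0.0872 and 0.0801). The no.2 difference of -0.88 passed when only genes well above background on all 6 arrays were tested (adjusted p = 0.034). It passed too with limma's trend and robust options (adjusted p = 0.0265) and with the replicate number as a block (adjusted p = 0.0471). Without replicate 1 of no.2 the no.2 difference was -1.17.

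Hyal1 signals were 24.6 and 44.2 in no.1, 29.3 and 37.3 in no.2, and 17.7 and 19.5 in control. All 4 tamoxifen arrays were above control on the raw signal, whereas the scaled levels overlapped. The log2 difference from control was -0.58 in no.1 (95% CI -1.46 to 0.29, adjusted p = 0.216), while no.2 gave 0.11 (95% CI -0.76 to 0.98, adjusted p = 0.828). Scaled to spike-ins the differences were 1.38 (adjusted p = 0.0219) and 1.44 (adjusted p = 0.0247), so in no.1 the direction turned. Without replicate 2 of no.1 the no.1 difference on the 75th percentile scale was -1.09 and passed (adjusted p = 0.0304), and without replicate 2 of no.2 the no.2 difference was -0.04. Of 9 further genes for hyaluronan degradation, 4 were tested, and Hexa, a lysosomal hexosaminidase subunit, alone passed, lower in both groups. The share of all genes that passed lower was 26.4% in no.1 and 16.2% in no.2. Hexa changed by -1.76 in no.1 (adjusted p = 0.00398), and no.2 showed -0.97 (adjusted p = 0.0308), against 0.20 and 0.36 with spike-in scaling. The no.2 call of Hexa was lost without control replicate 1, control replicate 2 or no.2 replicate 1 (adjusted p = 0.114, 0.164 and 0.065). It was lost too under normexp, quantile, median and the other percentile scaling and with the control arrays averaged (adjusted p = 0.0512, 0.15, 0.112, 0.0539 and 0.142). The list's median was -0.39 in no.1 and -0.26 in no.2. Cemip2, a transmembrane relative of Cemip, was 0.63 higher on the log2 scale in both groups and did not pass (adjusted p = 0.0667 in no.1 and 0.0905 in no.2).

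**Figure D2:**
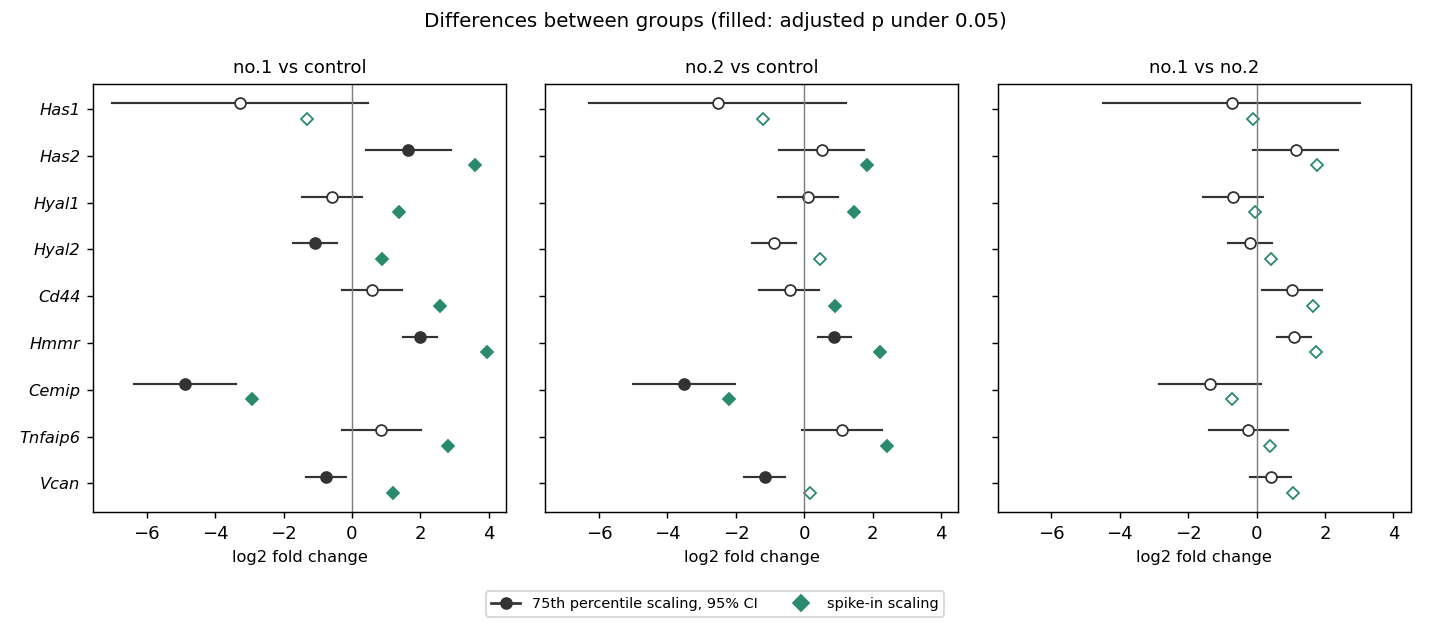
Log2 changes of the 9 tested members in no.1 against control, no.2 against control and no.1 against no.2. Black points with 95% confidence intervals use the 75th percentile scale, green diamonds the spike-in scale, and symbols are filled at an adjusted p under 0.05. Cemip lies left of 0 and Hmmr right of 0 on both scales against control, while Hyal2 and Vcan lie on opposite sides of 0 on the 2 scales.

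Hmmr encodes a hyaluronan-binding protein that also sits on the mitotic spindle, where it helps assembly together with TPX2. Its brightest probe gave signals of 313 and 225 in no.1, 77 and 76.1 in no.2, and 26.4 and 24 in control. The order was no.1, no.2, control, and no array of one group overlapped another. Its scaled level was 1.55 ± 0.21 in no.1, 0.45 ± 0.05 in no.2 and -0.43 ± 0.08 in control (SD, n = 2 each). Hmmr was 3.95-fold higher in no.1 than in control (log2 1.98, SE 0.20, adjusted p = 0.00237). Its call was kept under all 19 alternatives run, some of which repeat a fit. With normexp correction Hmmr was higher by 1.31, and with spike-in scaling by 3.95, on the log2 scale. It was 1.84-fold higher in no.2 (log2 0.88, SE 0.20, adjusted p = 0.0271), a call lost under normexp background correction (adjusted p = 0.0555) and with the control arrays averaged (adjusted p = 0.145). The no.2 call also needed all 4 arrays: it was lost without either control (adjusted p = 0.121 and 0.165) or either no.2 array (adjusted p = 0.055 and 0.0659). The other 2 Hmmr probes gave 182 and 109 and 116 and 75.1 in no.1, 53.5 and 31.6 and 30.6 and 23.6 in no.2, and 13.1 and 14.9 and 9.32 and 7.27 in control. Their order was the same, and their changes in no.1 were 1.92 (adjusted p = 0.00766) and 2.09 (adjusted p = 0.00366). In no.2 the changes were 0.84 (adjusted p = 0.112) and 0.99 (adjusted p = 0.0426), so 2 of the 3 Hmmr probes passed there.

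Genes known as partners of HMMR on the mitotic spindle were listed as 8 genes, and all 8 were tested. All 8 passed higher in no.1 and 7 passed higher in no.2, with none lower and a median of 2.60 and 1.60. Over all genes tested, 21.4% passed higher in no.1 and 12.1% in no.2, and the medians were -0.12 and -0.10. Cenpf, a kinetochore protein, had signals of 396 and 294 in no.1, 103 and 58.9 in no.2, and 15.3 and 14.8 in control, a log2 change of 3.09 in no.1 (adjusted p = 0.00231), while no.2 gave 1.65 (adjusted p = 0.0169). Tpx2, the spindle assembly factor, had 1260 and 671 in no.1, 336 and 267 in no.2, and 60 and 64.1 in control. For both genes the groups did not overlap and stood in the order no.1, no.2, control. Bard1 and Brca1, which form a ubiquitin ligase, were higher by 2.71 and 2.91 in no.1 and by 1.98 and 2.03 in no.2 on the log2 scale. With the control arrays averaged, 7 of the 8 passed higher in no.1, all but Dynll1 (adjusted p = 0.0564), and 2 in no.2, Bard1 and Brca1. In no.2 Cenpf, Tpx2, Aurka, Ccnb1 and Kif11 no longer passed (adjusted p = 0.0771, 0.0808, 0.16, 0.112 and 0.0501). Brca1 and Kif11 entered the test only through the tamoxifen groups, where they were bright, so the filter favoured higher calls for them in the counts above. The list was also chosen with earlier results of these data known. Normexp correction gave smaller differences in no.2, 0.28 for Brca1 (adjusted p = 0.278) and 0.60 for Cenpf (adjusted p = 0.0591), and the mean over all Brca1 probes was 0.68 (adjusted p = 0.105). Leaving out 1 array also ended no.2 calls: of Cenpf without either control (adjusted p = 0.0693 and 0.0761), of Tpx2 without any 1 of the control or no.2 arrays (adjusted p = 0.0523 to 0.0798), of Bard1 without control replicate 2 (adjusted p = 0.0529), and of Brca1 without control replicate 1 or no.2 replicate 2 (adjusted p = 0.0541 and 0.0576). Whether the Hmmr level moves with the share of dividing cells was not tested.

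Cd44, the principal cell surface receptor for hyaluronan, was read by 3 probes. The brightest gave 3030 and 2150 in no.1, 1090 and 552 in no.2, and 614 and 655 in control. On the raw signal both no.1 arrays stood above all the others, while 1 no.2 array lay above and 1 below both controls. The scaled level averaged 4.82 ± 0.23 in no.1, 3.79 ± 0.73 in no.2 and 4.22 ± 0.08 in control (SD, n = 2 each). The log2 difference from control was 0.60 in no.1 (95% CI -0.28 to 1.47, adjusted p = 0.209), and no.2 showed -0.43 (95% CI -1.31 to 0.44, adjusted p = 0.383). The no.1 difference passed under normexp background correction (adjusted p = 0.0184), median scaling (adjusted p = 0.046) and spike-in scaling (log2 2.56, adjusted p = 0.000339). In no.2, spike-in scaling turned the difference to 0.90 (adjusted p = 0.029), and the 2 arrays disagreed: without replicate 1 of no.2 it was -0.94 and passed (adjusted p = 0.0469), and without replicate 2 it was 0.08 (adjusted p = 0.81).

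The second Cd44 probe, at 2110 and 1500 in no.1, 1170 and 387 in no.2, and 723 and 697 in control, had a log2 difference from control of -0.09 in no.1 (adjusted p = 0.896), while no.2 gave -0.80 (adjusted p = 0.272). The third was dim, with signals of 14.5 and 9.45 in no.1, 6.59 and 1.83 in no.2, and 2.65 and 1.98 in control. It was well above background on both no.1 arrays, 1 no.2 array and no control array. With both controls at background no difference from control is given for it. Neither of the brighter probes passed against control on the 75th percentile scale.

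**Figure D3:**
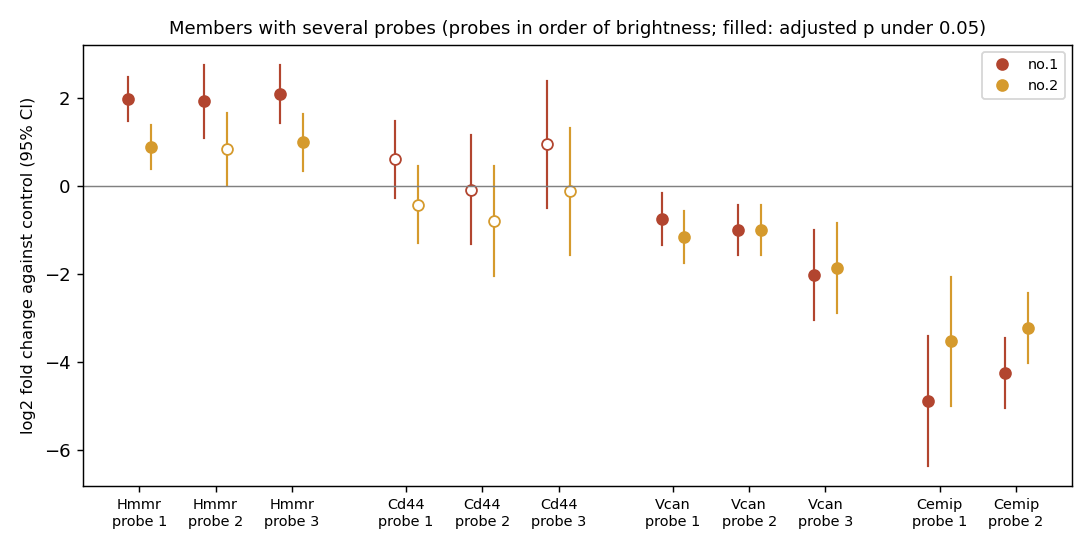
Log2 changes against control of every tested probe of the members with several probes, with no.1 and no.2 side by side in different colours. Symbols are filled at an adjusted p under 0.05. The 3 Hmmr probes lie between 1.92 and 2.09 in no.1, the Cemip probes at -4.88 and -4.25, and the 2 brighter Cd44 probes at 0.60 and -0.09; the third Cd44 probe has control arrays at background.

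Proteins that link CD44 to the cell cortex or act with it formed a list of 7, of which 6 were tested. In no.1, 2 passed higher and in no.2 1 did, with none lower and a median of 0.54 in both groups, where 21.4% and 12.1% of all genes passed higher. Rdx, which encodes radixin, a linker between membrane proteins and actin, had signals of 992 and 629 in no.1, 390 and 332 in no.2, and 120 and 120 in control. It was higher by 1.31 in no.1 (adjusted p = 0.00854), while no.2 gave 0.86 (adjusted p = 0.0439). Msn, which encodes the related moesin, was higher by 0.93 in no.1 (adjusted p = 0.0132). Its change in no.2 was 0.51 and was not called (adjusted p = 0.0996). That change passed under normexp correction (0.90, adjusted p = 0.0147), quantile normalization (0.93, adjusted p = 0.0185), median scaling (0.83, adjusted p = 0.045) and spike-in scaling (1.84, adjusted p = 0.0032). With the control arrays averaged none of these 3 calls was kept (adjusted p = 0.0504 and 0.183 for Rdx and 0.0847 for Msn). The no.2 call of Rdx was lost without any 1 of the control or no.2 arrays (adjusted p = 0.077 to 0.18), and the Msn call without control replicate 1, control replicate 2 or no.1 replicate 1 (adjusted p = 0.0862, 0.0796 and 0.0552).

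Of 6 other hyaluronan receptors, 3 were tested and Lyve1, Stab1 and Stab2, the receptors of lymphatic and sinusoidal endothelium, were too dim to test. Layn, the hyaluronan receptor layilin, had signals of 215 and 205 in no.1, 160 and 106 in no.2, and 289 and 266 in control. It changed by -1.81 in both groups (adjusted p = 0.00463 in no.1 and 0.00889 in no.2), but its difference with spike-in scaling was 0.15 in no.1 (adjusted p = 0.593), and no.2 showed -0.48 (adjusted p = 0.124). Averaging the control arrays ended the no.2 call of Layn (adjusted p = 0.0501). Tlr2, a pattern recognition receptor that also responds to hyaluronan fragments, had 53.7 and 147 in no.1, 112 and 370 in no.2, and 225 and 226 in control. Replicate 2 of no.2 had a raw signal above both controls. Its log2 difference was -2.76 in no.1 (adjusted p = 0.0211), while no.2 gave -0.87 (adjusted p = 0.364), and the no.1 call was lost without replicate 1 of no.1 (adjusted p = 0.109) or either control array (adjusted p = 0.0613 and 0.065). With spike-in scaling the no.1 difference was -0.79 (adjusted p = 0.372), and averaging the control arrays ended the call (adjusted p = 0.0648). Of 5 macrophage and leukocyte markers, Csf1r and Cd68 were well above background on all arrays and Adgre1, Lyz2 and Ptprc on none. The summed level of the 5 was 2.13 to 2.65 in no.1, 1.78 to 4.24 in no.2 and 9.93 to 10.7 in control. On the log2 scale Csf1r stood at 0.78 and 1.00 in no.1, 1.86 and 0.58 in no.2, and 3.33 and 3.24 in control, and Cd68 at -1.40 and -0.71 in no.1, -0.85 and -2.15 in no.2, and -0.84 and -1.39 in control. The low sum in no.1 was thus that of Csf1r, with Cd68 overlapping control. The part of other cells in the Tlr2 difference was not tested.

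Vcan encodes versican, the large chondroitin sulphate proteoglycan that binds hyaluronan in the pericellular coat. Its brightest probe gave 350 and 409 in no.1, 198 and 157 in no.2, and 252 and 228 in control. On the raw signal no.1 was highest and no.2 lowest, without overlap, while on the scaled level, at 2.07 ± 0.28 in no.1, 1.66 ± 0.27 in no.2 and 2.82 ± 0.09 in control, control was highest (SD, n = 2 each). Vcan was 1.68-fold lower in no.1 (log2 -0.75, SE 0.24, adjusted p = 0.0446), and the no.2 arrays were lower by 2.24-fold (log2 -1.16, SE 0.24, adjusted p = 0.021), but with spike-in scaling it was 1.21 higher on the log2 scale in no.1 (adjusted p = 0.00542), and no.2 showed 0.17 (adjusted p = 0.609). With the control arrays averaged neither call was kept (adjusted p = 0.167 and 0.104). The no.1 call was lost as well under normexp (-0.14, adjusted p = 0.409), median scaling (-0.32, adjusted p = 0.328), quantile normalization (adjusted p = 0.0502) and the 75th percentile over probes bright on all arrays (adjusted p = 0.0641). Without control replicate 1 or control replicate 2 the calls were lost in no.1 (adjusted p = 0.194 and 0.141) and no.2 (adjusted p = 0.108 and 0.0934), as they were without no.1 replicate 1 (adjusted p = 0.167) and no.2 replicate 2 (adjusted p = 0.0712). The other Vcan probes changed by -0.99 and -2.02 in no.1 (adjusted p = 0.0169 and 0.012) and by -1.0 and -1.87 in no.2 (adjusted p = 0.0285 and 0.0255). The last of them, with signals of 78.5 and 76.7 in no.1, 82.7 and 34.3 in no.2, and 126 and 111 in control, was lower than control also on the raw signal, and with spike-in scaling its log2 difference was -0.06 in no.1 and -0.54 in no.2. The 3 Vcan probes thus lay on one side of 0 on the 75th percentile scale and on both sides on the spike-in scale.

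Tnfaip6 encodes TSG-6, which transfers heavy chains of inter-alpha-inhibitor to hyaluronan. Its signals were 12.2 and 15.7 in no.1, 7.39 and 13.9 in no.2, and 4.3 and 1.92 in control. The control arrays were not well above background, and all 4 tamoxifen arrays were brighter than both, with no.1 and no.2 overlapping. Tnfaip6 entered the test only through the tamoxifen arrays, where it was bright. The measured log2 differences were 0.86 in no.1 (95% CI -0.30 to 2.01, adjusted p = 0.179), while no.2 gave 1.1 (95% CI -0.06 to 2.26, adjusted p = 0.126), and neither passed. The no.1 and no.2 means lay 1.14-fold and 1.35-fold above the lowest signal well above background on the control arrays. As neither difference passed, these values are not bounds on a rise. Both differences passed higher under median scaling (1.29, adjusted p = 0.037, and 1.42, adjusted p = 0.0383) and spike-in scaling (2.82, adjusted p = 0.00322, and 2.43, adjusted p = 0.0101). Normexp correction turned them to -0.46 in no.1, past the threshold (adjusted p = 0.00961), and -0.15 in no.2 (adjusted p = 0.262), so the direction depends on the correction.

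Of 16 other hyaluronan-binding matrix and plasma proteins, 5 were tested. Of these, 2 passed lower in both groups and none higher, where 26.4% of all genes passed lower in no.1 and 16.2% in no.2. Acan, Ncan, Bcan, Hapln1, Hapln2 and Hapln4, which form aggregates with hyaluronan in cartilage and brain, were among those too dim to test. Ptx3, which encodes pentraxin 3, a cross-linker of heavy chains on hyaluronan, had signals of 693 and 870 in no.1, 533 and 1230 in no.2, and 2610 and 2670 in control. It was 9.05-fold lower in no.1 (log2 -3.18, SE 0.41, adjusted p = 0.00367), and the no.2 arrays were 5.38-fold lower (log2 -2.43, SE 0.41, adjusted p = 0.0126). With spike-in scaling the log2 differences were -1.21 (adjusted p = 0.076) and -1.1 (adjusted p = 0.114). The no.2 call of Ptx3 was lost without control replicate 2 or with the control arrays averaged (adjusted p = 0.0547 in both). Hapln3, a link protein that stabilises binding of proteoglycans to hyaluronan, changed by -1.59 in no.1 (adjusted p = 0.00327), and no.2 showed -1.43 (adjusted p = 0.00732), and its differences were 0.37 and -0.10 with spike-in scaling. The no.2 call of Hapln3 was lost without control replicate 1 (adjusted p = 0.0532) and with the control arrays averaged (adjusted p = 0.0546). The list's median was -0.68 in no.1 and -0.49 in no.2.

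Versican-cleaving ADAMTS proteases and binding partners of versican were listed as 9 genes, with 8 tested. In no.1, 3 passed higher and 4 lower, and in no.2, 4 higher and 1 lower. Over all genes tested, 21.4% passed higher and 26.4% lower in no.1, and 12.1% and 16.2% in no.2. All 4 lower in no.1 had a positive difference with spike-in scaling, of 0.85 for Adamts5, 1.19 for Fbln1, 0.40 for Fbln2 and 1.03 for Fbn1. Adamts9 had signals of 91.4 and 51 in no.1, 26.6 and 95.2 in no.2, and 3.13 and 2.79 in control, where it was not well above background, so that it entered the test only through the tamoxifen groups, as did Adamts20. The filter thus favoured higher calls for these genes in the counts above. For Adamts9 the fitted log2 difference from control was 3.11 in no.1 (limma adjusted p = 0.00875), while no.2 gave 3.36 (adjusted p = 0.0136). Taken from the lowest signal well above background on the control arrays, the bounds on this scale were at least 5.64-fold and 6.71-fold. Normexp correction shrank the log2 differences to 0.34 (adjusted p = 0.345) and 0.59 (adjusted p = 0.167). Neither call was kept there, and the bounds do not hold under that correction. Adamts1 had 550 and 523 in no.1, 365 and 738 in no.2, and 90.9 and 89.2 in control, and was higher by 1.16 (adjusted p = 0.0313) and 1.81 (adjusted p = 0.0157). Fbln2, which encodes fibulin 2, a versican ligand, changed by -1.57 in no.1 (adjusted p = 0.0264), while no.2 gave -1.87 (adjusted p = 0.026), and with spike-in scaling the no.2 difference was -0.54. Fbn1, which encodes fibrillin 1, changed by -0.93 in no.1 (adjusted p = 0.0157), and no.2 showed -0.52 (adjusted p = 0.111), and with spike-in scaling the no.2 difference was 0.81. With the control arrays averaged Adamts9 in no.1 alone of the list's calls was kept, 1 of 8 genes in no.1 and 0 in no.2 (adjusted p = 0.0529 for Adamts9 in no.2 and 0.091 for Fbn1 in no.1). Normexp correction and median scaling also ended the no.1 calls of Fbln2 (-0.83, adjusted p = 0.128, and -1.14, adjusted p = 0.053) and Fbn1 (-0.29, adjusted p = 0.1, and -0.50, adjusted p = 0.139). Quantile normalization ended the no.1 calls of Adamts1, Fbln2 and Fbn1 (adjusted p = 0.055, 0.0607 and 0.0563). The no.2 call of Fbln2 was lost under normexp correction (-1.42, adjusted p = 0.0509). Adamts1 and Fbln2 were also lost in no.1 without any 1 of the no.1 or control arrays (adjusted p = 0.104 to 0.112 for Adamts1 and 0.0593 to 0.123 for Fbln2), and in no.2 without either control array (0.0635 and 0.069, and 0.0871 and 0.0956) or, for Fbln2, without no.2 replicate 2 (adjusted p = 0.0742). Fbn1 in no.1 was lost without control replicate 1, control replicate 2 or no.1 replicate 1 (adjusted p = 0.0955, 0.0829 and 0.0689). Adamts9 was lost in no.1 without no.1 replicate 1 (adjusted p = 0.0616) and in no.2 without control replicate 2 (adjusted p = 0.0543).

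**Figure D4:**
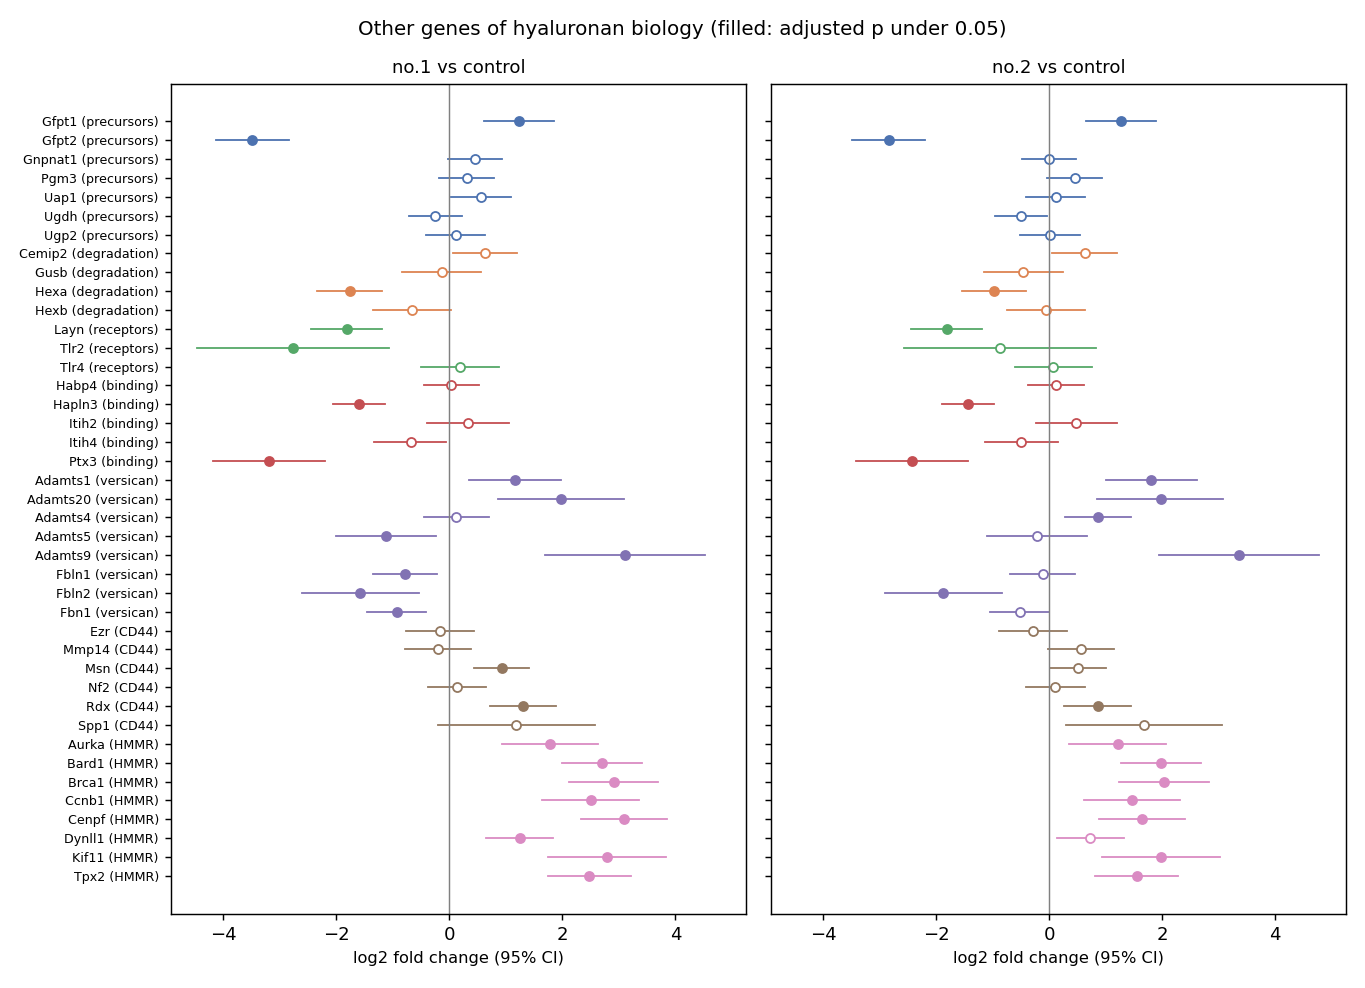
Log2 changes against control of every tested gene of the 7 hyaluronan-related lists, with no.1 and no.2 in separate panels and filled symbols at an adjusted p under 0.05. All 8 HMMR spindle partners lie to the right of 0 in both panels, while the UDP-sugar list holds Gfpt2 far to the left (-3.48 in no.1) and Gfpt1 to the right (1.23 in no.1).

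The comparison that the series' design text names, no.1 against no.2, gave 0 calls by limma among the 9 members and among all 23060 genes (0%), where unadjusted p-values under 0.05 were seen for 3825 genes and no adjusted p was below 0.206. Hmmr was 2.15-fold higher in no.1 (log2 1.1, 95% CI 0.61 to 1.60, adjusted p = 0.282), and Cd44 2.04-fold higher (log2 1.03, 95% CI 0.15 to 1.90, adjusted p = 0.282). Both were higher in all 4 pairs of a no.1 with a no.2 array, as were Has2 (log2 1.14, 95% CI -0.11 to 2.38, adjusted p = 0.321) and Vcan (log2 0.41, 95% CI -0.18 to 1.00, adjusted p = 0.403). Cemip and Hyal1 were lower in no.1 in all 4 pairs, by log2 -1.35 (95% CI -2.84 to 0.14, adjusted p = 0.322) and -0.70 (95% CI -1.57 to 0.18, adjusted p = 0.356). For Hyal2, Tnfaip6 and Has1 the log2 differences were -0.20, -0.24 and -0.73, with adjusted p = 0.708, 0.807 and 0.82. Intervals this wide do not show that the members were alike in the 2 groups. No member of the 7 related lists passed either. The comparisons with control share the control arrays, so their changes are given side by side and not correlated.

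The genes whose levels followed a member most closely over the 6 arrays were sought among 11400 named genes well above background on every array, with Pearson's r as a description over 6 points in 3 groups. For Hmmr they were Rlim (r = 0.9991), Fxr1 (r = 0.999) and Ythdf3 (r = 0.998), and for Cemip Nupr1 (r = 0.9989), Cfap74 (r = 0.9988) and Prelp (r = 0.9984). A pattern set by 3 groups is easily shared: 898 genes had r over 0.95 with Hmmr, 646 with Cemip and 812 with Hyal2, where Stim1 (r = 0.9992), Ehbp1l1 (r = 0.9982) and Tsen54 (r = 0.9975) came first. Has2 had 8 such genes, led by Evi2a (r = 0.9564), Thoc2l (r = 0.9542) and Nr4a1 (r = 0.9529). Cd44 had 35, led by Micu3 (r = 0.9982), Gatc (r = 0.9953) and Pvr (r = 0.9947). Vcan had 53, led by Klf9 (r = 0.9902), Arhgap4 (r = 0.9898) and St6galnac1 (r = 0.988), and Hyal1 had 91, among them Fndc3a (r = 0.9934) and Iqcg (r = 0.9933).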

How the data were processed

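Total RNA was measured on 6 arrays. Per the file headers, the deposited intensity values come from Agilent Feature Extraction 12.1.1.1 (the submitters' processing notes name 9.5.1.1), background-subtracted, a surrogate value standing in for dim spots, and not normalized between arrays. The authors' table of intensity values, as deposited, matched the processed signal after quantile normalization to 1% for at least 99.97% of values on every array (column median 5.16), which gives its scale, centring and direction; it had 0 unmapped columns.

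Spots of a probe were averaged, accessions were matched to RefSeq symbols (32994 of 56605 probes, 58.3%; GRCm38.p6, names only, since the headers name mm9), and each gene was read by its brightest probe. No probe was saturated. Tests used limma 3.58.1 in R 4.3.3 (tables read by data.table, version 1.17.8; lmFit and eBayes, a mean per group, 3 residual degrees of freedom) with Benjamini-Hochberg adjustment over all 23060 genes and calls at 0.05. The fit was tested on simulated data. A called gene dim in 1 group is given with a bound. The alternatives were background correction, scaling (including 7 spike-in probes), filters, probe choice, the replicate number as a block, control arrays averaged, and each array left out. The planned normexp correction used median signals (offset 50), as mean signals were not used here. The number of arrays limits the precision.

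The 10 members, the 7 lists, the tests and the rule for named genes were chosen with earlier results of these data known. The rule takes every member, Plod2, up to 4 called genes per list by lowest p, and the 3 genes most correlated with each member seen on all arrays. Of the genes so chosen, 1 is not reported here.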

Additional observations from a re-analysis of the deposited data

How the results depend on the processing

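The calls of Hmmr and Cemip in no.1 against control were kept under all 19 alternatives run. Each of the other 6 calls of members against control was lost under at least 1. The 19 were not all separate checks. For no.1 against control, leaving out either no.2 array gave the same fit as using the 2 groups alone. The authors' deposited values were nearly those of quantile normalization. Members called in no.1 against control numbered 5, and 8 with spike-in scaling, 2 with the control arrays averaged and 2 to 5 with 1 array left out. In no.2 against control they numbered 3, and 6, 0 and 0 to 4 under the same settings. Between no.1 and no.2 they numbered 0, and 2 without the filter on dim probes (Has3, at its surrogate signal, and Hmmr). Of all genes, 11021 were called in no.1 against control (4940 higher, 6081 lower), and 19382 with spike-in scaling (18976 higher, 406 lower), 24873 without the filter, 4846 with the control arrays averaged and 4999 to 12054 with 1 array left out. In no.2 against control 6518 were called (2790 higher, 3728 lower), and 15739 (15234 higher, 505 lower), 16476, 1246 and 1298 to 6367. Between no.1 and no.2 the counts were 0, 8296 without the filter, and 0 to 117 with 1 array left out. Without the filter, 7776 of the 8296 calls between no.1 and no.2 were lower. Against control 19758 of 24873 were lower in no.1 and 13446 of 16476 in no.2. That setting also tests genes at a surrogate signal, such as Has3, whose scaled level follows the scaling of each array only. Its counts therefore do not show that so many genes differed. How many of its calls were of such genes was not tested. The split of calls moved with scaling: median scaling gave 7564 higher and 3296 lower in no.1 and 4840 and 2176 in no.2, and quantile normalization 5968 and 5006, and 3713 and 3071.

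Directions turned in these cases. With spike-in scaling, the log2 changes in no.1 against control became 1.38 for Hyal1, 0.88 for Hyal2, 1.21 for Vcan, 0.40 for Fbln2, 1.03 for Fbn1, 0.37 for Hapln3, 0.20 for Hexa and 0.15 for Layn. In no.2 against control they became 0.90 for Cd44, 0.45 for Hyal2, 0.17 for Vcan, 0.81 for Fbn1, 0.36 for Hexa and 0.46 for Tlr2, and between no.1 and no.2 0.43 for Hyal2 and 0.39 for Tnfaip6. Normexp correction gave -0.46 and -0.15 for Tnfaip6 in no.1 and no.2 against control, -0.02 for Hyal1 in no.2 against control, and 0.12 for Hyal2 between no.1 and no.2. Its offset of 50 was more than any Tnfaip6 or Hyal1 signal, so it cannot decide the direction of these dim genes. Without 1 array, no.2 against control gave 0.08 to -0.94 for Cd44, -0.04 to 0.26 for Hyal1 and -0.23 to 1.26 for Has2, by which no.2 array was left out. No.1 against no.2 gave -2.73 to 1.27 for Has1 (1.01 without no.2 replicate 1), -0.67 to 0.19 for Tnfaip6 (0.03 without no.1 replicate 1) and -0.48 to 0.08 for Hyal2.

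The replicate number as a block gave 10572 and 6056 genes against control and 0 between no.1 and no.2, and 4, 4 and 0 members: Vcan in no.1 was lost (adjusted p = 0.0654) and Hyal2 in no.2 gained (adjusted p = 0.0471). No label ties equal numbers together, and deviations from the group means correlated at -0.035 (no.1 and control), -0.017 (no.2 and control) and 0.165 (no.1 and no.2, whose equal numbers share the hours in their file names). Causes of these differences were not tested. Averaging the control arrays, and leaving out an array, fit fewer samples. Signal over background limits Has1, Has3 and Tnfaip6.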
